A study of Mus musculus with 8 samples.

Results

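The genes described are the liver X receptors (LXR) and a set of their targets that move sterols out of cells or act beside that process: Nr1h2, Nr1h3, Abca1, Abcg1, Abcg5, Abcg8, Mylip and Lpcat3. They were taken as all probe sets annotated to exactly 1 of these 8 symbols, which gave 10 of the 45037 probe sets tested and 7 of 18193 genes. Abca1 had 3 probe sets, Abcg1 had 2, and Nr1h3, Abcg5, Abcg8, Mylip and Lpcat3 had 1 each. The expression of Nr1h2, which encodes LXRbeta, was not analysed here. Affymetrix expression arrays had been hybridised with liver total RNA of 8 mice at an age of 2 days, with 1 array per liver. Of these mice, 4 carried the genotype Mfp2 -/- and 4 were wild type (WT). Mfp2 is the peroxisomal multifunctional protein 2, which takes part in the shortening of very long chain fatty acids and of the side chain of bile acid precursors. Its gene is Hsd17b4. The labels give neither strain nor sex, nor whether Mfp2 was removed from all cells, and no treatment is named.

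LXRs are nuclear receptors that bind oxysterols and pair with retinoid X receptors (RXR) on DNA. When a cell holds more sterol than it needs, they raise transcription of transporters that export it and of an enzyme that marks lipoprotein receptors for degradation. In liver these outputs feed high density lipoprotein (HDL) formation through Abca1 and secretion of sterols into bile through Abcg5 and Abcg8. The comparison of knockout with wild type livers asks whether this sterol export programme differed in newborn mice without Mfp2.

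None of the 7 genes measured passed the threshold in either direction. By limma with Benjamini-Hochberg adjustment, 0 of the 10 probe sets had an adjusted p below 0.05, and the adjusted p ran from 0.616 to 0.987. Over all 18193 genes 1.15% were called, 0.308% higher and 0.841% lower in the knockout, and over all probe sets 0.762%. A count of 0 among 7 genes is near that background. At an unadjusted p below 0.05 the count was also 0 of 10, where 11.7% of all probe sets and 14.6% of all genes lay below that value. Knockout and wild type livers overlapped at all 10 probe sets, while the groups did not overlap in 6.9% of all probe sets and 8.61% of all genes. Of the 7 genes 4 had a higher and 3 a lower mean in the knockout, and their median difference was 0.02 on the log2 scale against 0.01 for all genes.

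The size of what could have been missed is given by the 95% intervals of the differences. All 10 intervals lay within a 2-fold change in both directions, and 7 of 10 lay within a 1.5-fold change. The lowest bound was 0.584-fold, at an Abca1 probe set, and the highest was 1.55-fold, at Lpcat3. Differences inside these bounds may exist and were not detectable with 4 livers a group. The values are RMA values, that is background-corrected, normalised array signals on the log2 scale, and differences are knockout minus wild type, each with its standard error (SE) from limma. RMA normalisation brings all arrays to nearly the same distribution, so a change in the total mRNA of a liver cannot be seen. Whole liver was measured, so that fewer cells of a type and less RNA per cell cannot be told apart.

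**Figure D1:**
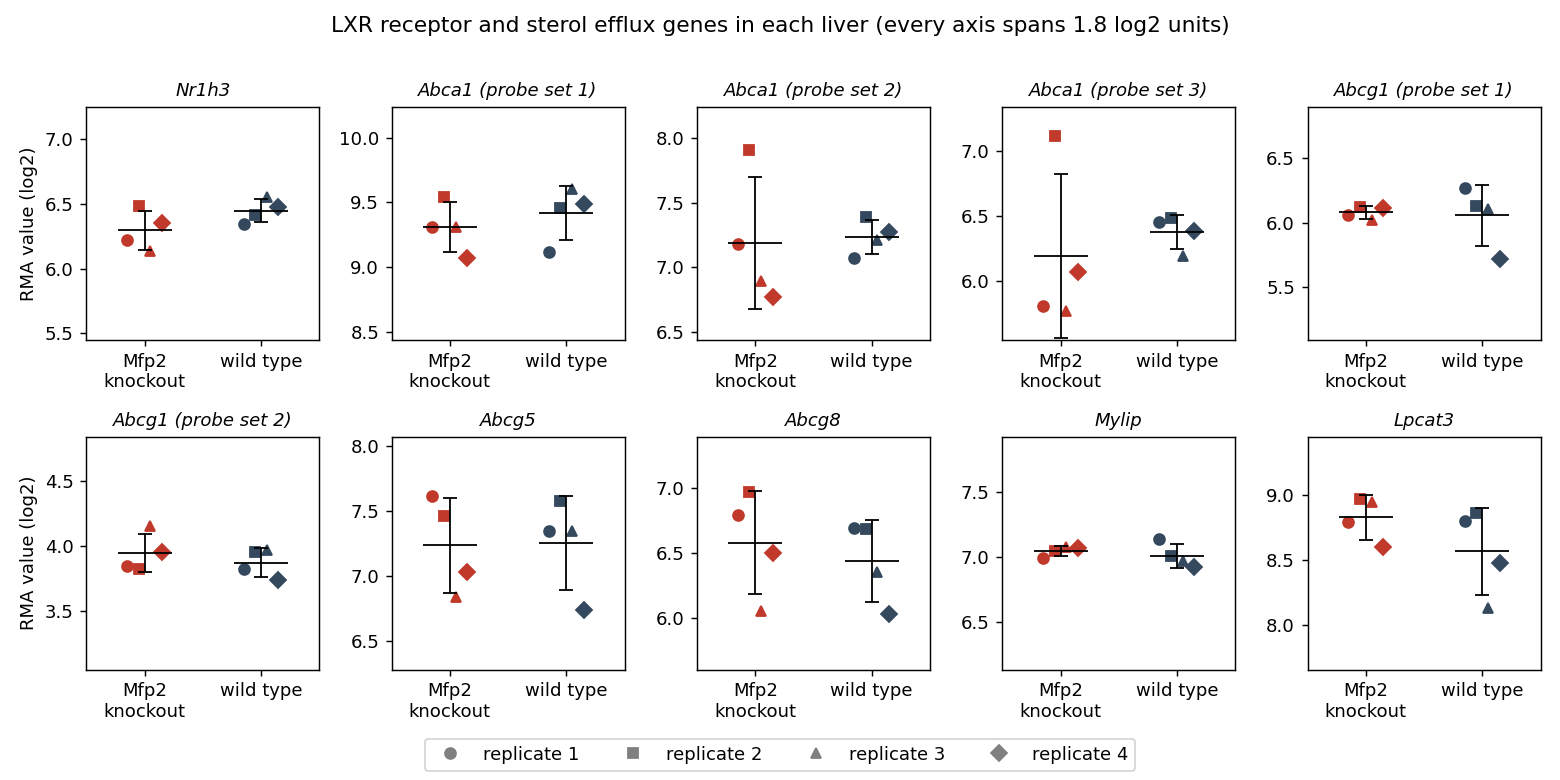
RMA values (log2) of the 10 probe sets in 4 Mfp2 knockout livers (red) and 4 wild type livers (dark blue). Bars show mean ± SD, marker shapes show the replicate number, and each panel has its own level on an axis of the same span. The groups overlap in every panel.

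**Figure D2:**
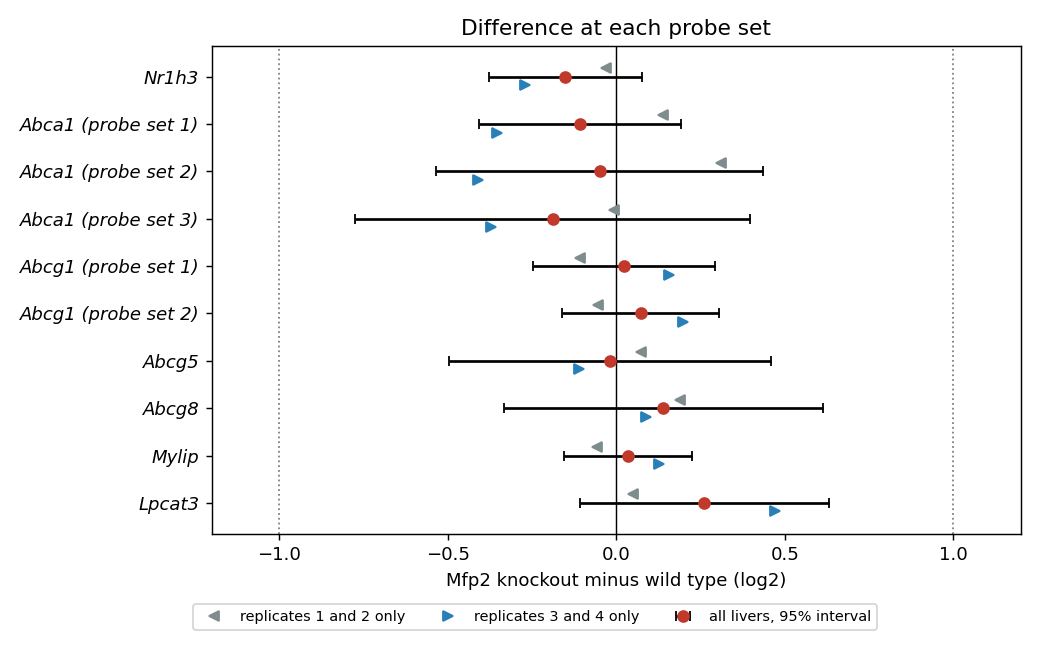
Difference of knockout minus wild type (log2) at each probe set, with its 95% interval (bars, limma) over 8 livers and without a test in replicates 1 and 2 or replicates 3 and 4 alone (triangles). Every interval includes 0 and lies between the dotted lines of a 2-fold change.

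The regions around the starts of 3 transporter genes are shown. Those of Abcg5 and Abcg8 were chosen because both genes had lower means in replicates 3 and 4 than in replicates 1 and 2. Lpcat3, Mylip, the dimmer Abca1 probe sets and the brighter Abcg1 probe set also had lower means in replicates 3 and 4. The Abca1 region was chosen because it holds a form of the LXR site. Windows of 300 bases, from 250 before to 50 after the annotated start, come from RefSeq on build GRCm38.p6 and were matched for 7 of the 8 listed genes, Nr1h2 among them and Abcg1 not, in 9 windows. Abcg5 and Abcg8 lie head to head. Abcg8 has 2 annotated starts. The one shown lies 110 bases from that of Abcg5, and the windows of these starts share 209 bases, chr17:84682962-84683170, read on opposite strands. The other Abcg8 window, chr17:84676052-84676351, does not overlap that of Abcg5 and holds no AGATAA match. Capitals mark AGATAA or its reverse complement, the core of sites for GATA factors.
Abcg5 (chr17:84682962-84683261, minus strand): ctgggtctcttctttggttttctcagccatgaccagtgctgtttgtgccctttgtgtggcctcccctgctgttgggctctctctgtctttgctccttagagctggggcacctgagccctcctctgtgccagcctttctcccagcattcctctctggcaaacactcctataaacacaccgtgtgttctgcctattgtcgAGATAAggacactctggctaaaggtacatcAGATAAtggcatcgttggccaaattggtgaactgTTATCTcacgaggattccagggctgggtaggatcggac
Abcg8 (chr17:84682871-84683170, plus strand): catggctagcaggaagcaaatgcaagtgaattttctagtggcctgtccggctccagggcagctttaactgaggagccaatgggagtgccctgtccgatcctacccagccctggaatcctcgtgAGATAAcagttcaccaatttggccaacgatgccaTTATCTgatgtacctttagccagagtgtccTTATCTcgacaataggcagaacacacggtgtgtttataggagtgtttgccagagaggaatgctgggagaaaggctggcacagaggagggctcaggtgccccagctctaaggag
All 3 matches lie in the shared stretch. AGATAA, on either strand, occurs in 11.2% of the 32851 windows of this length in the mouse table. In the Abca1 window capitals mark a match to a loose form of the LXR direct repeat.
Abca1 (chr4:53159846-53160145, minus strand): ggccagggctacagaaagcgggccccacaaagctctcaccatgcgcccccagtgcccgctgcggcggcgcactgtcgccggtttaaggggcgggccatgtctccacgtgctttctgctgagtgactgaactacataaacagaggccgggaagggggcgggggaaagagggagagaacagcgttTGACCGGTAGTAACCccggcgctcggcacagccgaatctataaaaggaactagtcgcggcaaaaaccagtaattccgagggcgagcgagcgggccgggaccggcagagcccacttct
LXR and RXR bind direct repeats of a hexamer with a spacer of 4 bases. The strict form searched, AGGTCA, 4 free bases and AGGTCA again, was in 0 of the 9 windows and in 0.0152% of all windows, both strands searched. The loose form, GGTNA, 5 free bases and GGTCA, holds every strict match too. It was in 1 of the 9, that of Abca1 at chr4:53159948-53159962, and in 0.207% of all windows. CAAGGTCA, the site of the liver receptor homologue LRH-1, was in 0 of the 9 and in 1.56% of all windows. The motifs are a description of these letters, and binding was not measured.

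The receptor gene Nr1h3 encodes LXRalpha, the form enriched in liver. At its probe set (1450444_a_at) the knockout livers 1 to 4 had values of 6.22, 6.48, 6.14 and 6.35, and the wild type livers 6.35, 6.42, 6.56 and 6.47. Knockout 1 and knockout 3 lay below all wild type livers, and knockout 2 lay above 3 of the 4. The difference was -0.15 ± 0.10 (SE), with a 95% interval of -0.38 to 0.08, an adjusted p of 0.646 and an exact permutation p of 0.200 (two-sided). With 4 against 4 livers that test cannot go below 0.0286.

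Abca1 is the membrane pump that loads cholesterol and phospholipid onto apolipoprotein A1 and so starts HDL. Its brightest probe set (1421840_at) read 9.31, 9.55, 9.31 and 9.07 in knockout livers, against 9.11, 9.46, 9.60 and 9.49 in wild type livers. Knockout 4 and wild type 1 were the low livers of their groups, and the groups overlapped over most of their range. The difference was -0.11 ± 0.13 (SE), with a 95% interval of -0.41 to 0.19 and an adjusted p of 0.837.

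The other two Abca1 probe sets spread more widely among knockout livers, and knockout 2 stood high at both. At 1421839_at the knockout values were 7.18, 7.90, 6.89 and 6.77, against 7.07, 7.39, 7.21 and 7.27 in wild type. At 1450392_at they were 5.81, 7.11, 5.77 and 6.07, against 6.46, 6.48, 6.19 and 6.38 in wild type. Knockout 2 was the highest of the 8 livers at both, while the other knockout livers lay below all wild type livers at 1450392_at. The differences were -0.05 ± 0.22 and -0.19 ± 0.26 (SE), with adjusted p of 0.963 and 0.860. Leaving out knockout 2 gave -0.29 ± 0.13 and -0.50 ± 0.12, with adjusted p of 0.440 and 0.121, so neither passed the threshold over all probe sets. In the same fit the difference of the brightest probe set was -0.19 ± 0.13. Knockout 2 was singled out because it was the highest liver at both, and removing the highest knockout value must lower a difference. With any 1 array left out the differences ran from -0.29 to 0.089 at 1421839_at and from -0.50 to -0.048 at 1450392_at. Over the 8 livers the 3 Abca1 probe sets correlated with each other at Pearson r between 0.40 and 0.83, a description of 8 points that share their arrays.

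The knockout minus wild type difference of Abca1 was also computed within replicates 3 and 4 and within replicates 1 and 2. No label defines these array subsets. The split was made with earlier results of these data known, and with genotype in the fit 229 of 45037 probe sets (0.508%) differed between the subsets past the threshold in limma. In replicates 3 and 4 its 3 probe sets, brightest first, had differences of -0.35, -0.41 and -0.37. In replicates 1 and 2 they had 0.14, 0.31 and -0.0079. Whether the difference changed between the subsets was not tested. A fit of replicates 3 and 4 alone gave the brightest probe set an adjusted p of 0.310. Xist, transcribed from the inactive X of female cells, was high in both knockout livers of replicates 1 and 2, at 8.59 and 9.28, and low in both wild type livers, at 2.83 and 4.19. Genotype and sex therefore cannot be told apart in that subset. In replicates 3 and 4 Xist was high in wild type 3 alone, at 8.67.

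Abcg1, which passes cholesterol to formed HDL particles, had nearly equal means in both groups. At 1423570_at its values were 6.06, 6.13, 6.02 and 6.12 in knockout livers, against 6.27, 6.13, 6.11 and 5.72 in wild type livers. Wild type 4 was the lowest liver and wild type 1 the highest, so the knockout values lay inside the wild type range. The difference was 0.02 ± 0.12 (SE), with a 95% interval of -0.25 to 0.29 and an adjusted p of 0.967. Leaving out wild type 4 turned it to -0.09 ± 0.10, still above the threshold with an adjusted p of 0.853. The other probe set (1455221_at) lay between 3.74 and 4.15 in all 8 livers, close to the array medians of 3.68 to 3.73. It is not shown to be above background, and its difference was 0.07 ± 0.10 with an adjusted p of 0.865.

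Abcg5 and Abcg8 encode the 2 half-transporters, sterolin-1 and sterolin-2, that together secrete sterols into bile. Abcg5 (1419393_at) had values of 7.62, 7.47, 6.83 and 7.03 in knockout livers and 7.35, 7.58, 7.35 and 6.74 in wild type livers. Abcg8 (1420656_at) had values of 6.79, 6.97, 6.06 and 6.50 in knockout livers and 6.69, 6.69, 6.35 and 6.03 in wild type livers. For both genes knockout 3 and wild type 4 were the lowest livers of their groups, and knockout 1 and knockout 2 were high. Abcg5 differed by -0.02 ± 0.21 (SE), with a 95% interval of -0.50 to 0.46 and an adjusted p of 0.987. Abcg8 differed by 0.14 ± 0.21, with an interval of -0.33 to 0.61 and an adjusted p of 0.874. The sign of the Abcg5 difference is not settled, as it turned in 9 of 24 alternatives, some of which cannot change a difference.

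Over all 8 livers the Abcg5 and Abcg8 values varied together. Their Pearson r over the 8 livers was 0.868 and their Spearman rho 0.857, and with each group's mean taken out Pearson r was 0.897. Among 18192 other genes Abcg8 ranked 60 by its correlation with Abcg5, and Abcg5 ranked 140 by its correlation with Abcg8. Without the 2 livers farthest from the median of Abcg5, wild type 4 and knockout 3, Pearson r was lower, at 0.546 over 6 livers. Leaving out the farthest livers narrows the range and can itself lower r, so this value does not tell how far the relation rests on them. Both genes were lower in replicates 3 and 4 than in replicates 1 and 2, with means of 6.99 against 7.50 for Abcg5 and 6.24 against 6.79 for Abcg8. Replicates 3 and 4 minus replicates 1 and 2 was also negative for Lpcat3 (-0.32), Abca1 1421839_at (-0.35) and 1450392_at (-0.36), Abcg1 1423570_at (-0.16) and Mylip (-0.035). It was positive for Nr1h3 (0.014), the brightest Abca1 probe set (0.012) and Abcg1 1455221_at (0.090). Abcg8 lay at 6.03 to 6.50 in replicates 3 and 4, against 6.69 to 6.97 in replicates 1 and 2. Abcg5 lay at 6.74 to 7.35, against 7.35 to 7.62. The share of all probe sets whose ranges are apart on this split was not computed. Within replicates 3 and 4 Pearson r was 0.705 over 4 livers, and within replicates 1 and 2 it was 0.00098. The relation was thus not seen in both subsets, but 4 livers in a narrow range cannot decide whether it was absent in replicates 1 and 2. The labels do not say what replicate numbers stand for. These correlations are a description with no test, since both genes had other levels in the one subset than in the other and the subsets hold 4 livers each.

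**Figure D3:**
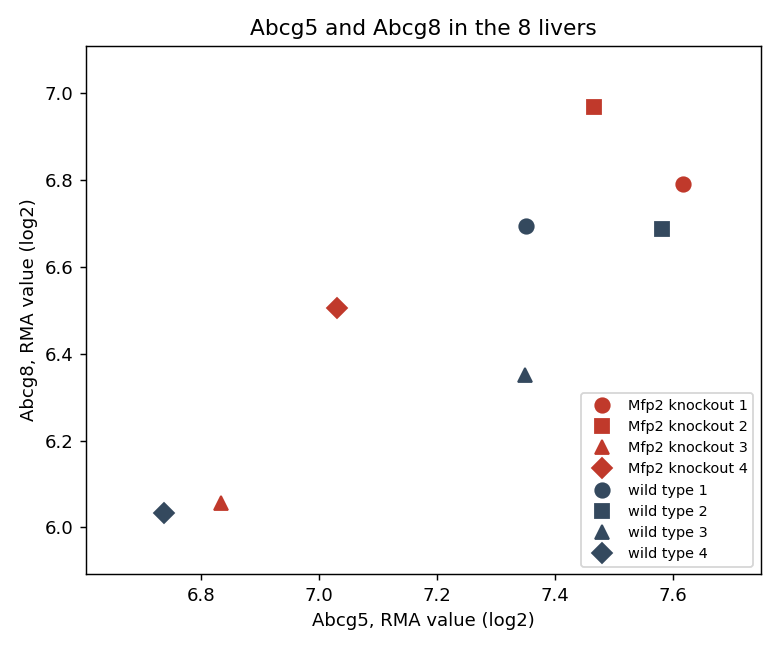
Abcg8 against Abcg5, RMA values (log2), with 1 point for each of the 4 Mfp2 knockout livers (red) and 4 wild type livers (dark blue), and marker shapes for the replicate number. Knockout 3 and wild type 4 are low on both axes, and the genotypes are intermixed.

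Within groups Abcg5 and Abcg8 varied more than most transcripts, and Mylip varied less. The within-group SD was 0.36 for Abcg5 and 0.36 for Abcg8, against a median of 0.18 over all genes. The lower values of both genes in replicates 3 and 4 are part of that SD. It was also above the median at Abca1 1450392_at (0.46) and 1421839_at (0.37) and at Lpcat3 (0.27). Mylip, the ubiquitin ligase also called Idol, marks lipoprotein receptors for degradation, and its SD was 0.071. Its values (1424988_at) were 6.99, 7.04, 7.08 and 7.07 in knockout livers, against 7.14, 7.01, 6.97 and 6.92 in wild type livers. All knockout values lay inside the wild type range. The difference was 0.04 ± 0.09 (SE), with a 95% interval of -0.16 to 0.23 and an adjusted p of 0.929. In fold terms that interval ran from 0.898 to 1.17.

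Lpcat3, which puts polyunsaturated fatty acids into membrane phospholipids, had the largest difference of the 10 probe sets. Its values (1423960_at) were 8.79, 8.98, 8.95 and 8.60 in knockout livers, against 8.80, 8.86, 8.13 and 8.48 in wild type livers. Wild type 3 was the lowest liver, and knockout 1 and knockout 4 lay inside the wild type range. The difference was 0.26 ± 0.17 (SE), with a 95% interval of -0.11 to 0.63, an adjusted p of 0.616 and an exact permutation p of 0.229. Replicates 1 and 2 alone gave 0.051 and replicates 3 and 4 alone gave 0.47, and leaving out wild type 3 gave 0.12.

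The genes whose values over the 8 livers were most like those of Lpcat3 and Nr1h3, the members with the lowest p, were found by Pearson r. For Lpcat3 these were Caml, Wnt1, Uvrag and Ngef, with r between 0.962 and 0.969. For Nr1h3 they were Gask1b, Lum, Itsn1 and Bex2, with r between 0.957 and 0.989. Predicted genes and genes with clone names were left out of this search, so the candidates were fewer than 18192. With 8 livers and that many candidates such values are given as a description only, and 0 of these 8 genes passed the threshold between genotypes. Wnt1 averaged 2.89 and Gask1b 2.89, below the array medians, and neither is shown to be above background.

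Around the members, 104 other genes of the LXR and sterol pathway in 8 lists were measured, and 1 of them passed the threshold. This was Dhcr7, the last enzyme of cholesterol synthesis, listed because it consumes a sterol precursor. It had a mean of 7.56 ± 0.19 (SD) over the 4 knockout livers, against 6.42 ± 0.40 over the 4 wild type livers, a rise of 1.15 ± 0.19 (SE) with an adjusted p of 0.0383. Dhcr7 no longer passed when any of the 4 knockout livers, wild type 3 or wild type 4 was left out, with differences of 1.06 to 1.29 and adjusted p of 0.0638 to 0.129. It did not pass in replicates 1 and 2 alone either, nor with the macrophage or erythroid marker mean as a covariate. A share of 0.962% called is close to the 1.15% of all genes. At an unadjusted p below 0.05 there were 27 of the 104, 19 higher and 8 lower, which is 26.0% against 14.6% of all genes. The groups did not overlap in 15 of the 104 (14.4%), against 8.61% of all genes. Of the genes named here these were Dhcr7, Gps2, Lpl, Fasn, Lcat, Npc2, Lpcat1, Agpat3, Abca6 and Abca7. These lists were chosen with earlier results of these data known.

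The partners of LXR gave 0 calls among 16 measured genes by limma, with 4 at an unadjusted p below 0.05. Rxra, the RXR most abundant in liver, had a mean of 7.50 ± 0.18 (SD) over the 4 knockout livers, against 7.50 ± 0.12 over the 4 wild type livers, and its adjusted p was 0.999. Gps2, a subunit of the corepressor complex, differed by -0.34 ± 0.10 (SE) with an adjusted p of 0.185. Ncoa3, a coactivator of nuclear receptors, differed by 0.27 ± 0.10 with an adjusted p of 0.343. Their median difference was 0.02, near that of all genes.

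Among 18 other LXR targets of lipid metabolism 0 passed in limma, 7 had an unadjusted p below 0.05, and 15 had a higher mean in the knockout. Lpl, the lipoprotein lipase, differed by 0.44 ± 0.09 (SE, adjusted p 0.0636) and Fasn, the fatty acid synthase, by 0.62 ± 0.15 (adjusted p 0.0998). Srebf1, whose transcription LXR raises, had the opposite sign, with a mean of 7.98 ± 0.25 (SD) over the 4 knockout livers, against 8.44 ± 0.23 over the 4 wild type livers (adjusted p 0.241). The list's median difference was 0.19.

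Enzymes that make or remove the sterol ligands gave 1 call, Dhcr7, among 12 measured, with 4 at an unadjusted p below 0.05. Cyp7a1, which begins bile acid synthesis and is an LXR target in mice, had a mean of 7.05 ± 0.38 (SD) over the 4 knockout livers, against 7.71 ± 0.26 over the 4 wild type livers, and its adjusted p was 0.189. Cyp27a1, the mitochondrial sterol 27-hydroxylase, differed by 0.92 ± 0.23 (SE, adjusted p 0.124) and was named after its values were seen. Its product is an oxysterol ligand of LXR. Its groups overlapped, and it differed by 0.47 in replicates 1 and 2 and by 1.36 in replicates 3 and 4. Cyp39a1 of the same list, also named after its values were seen, differed by 0.64 ± 0.25 (SE, adjusted p 0.352), and its groups overlapped.

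HDL acceptors and remodelling enzymes gave 0 calls among 11 measured genes by limma, with 2 at an unadjusted p below 0.05 and 10 with a higher mean in the knockout. Lcat, which esterifies cholesterol on HDL, differed by 0.44 ± 0.11 (SE, adjusted p 0.102), and its groups did not overlap. Scarb1, the HDL receptor that takes up cholesteryl ester, differed by 0.23 ± 0.10 (adjusted p 0.370). Sterol traffic inside cells gave 0 calls among 15 genes by limma, with 3 at an unadjusted p below 0.05. Npc1 and Npc2, which carry cholesterol out of lysosomes, differed by 0.58 ± 0.18 and 0.31 ± 0.10, with adjusted p of 0.204 and 0.250.

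Of 8 genes around Mylip 5 were measured, with 0 calls by limma and 0 at an unadjusted p below 0.05. Vldlr, a receptor that Mylip marks for degradation, had a mean of 3.76 ± 0.73 (SD) over the 4 knockout livers, against 4.12 ± 0.38 over the 4 wild type livers (adjusted p 0.751), close to the array medians. Ube2d2a, a ubiquitin-conjugating enzyme, differed by -0.19 ± 0.13 (SE, adjusted p 0.671). The relatives of Lpcat3 in phospholipid remodelling gave 0 calls among 15 genes by limma, with 5 at an unadjusted p below 0.05, 2 higher and 3 lower. Lpcat1 differed by -0.59 ± 0.12 (SE, adjusted p 0.0651) and Agpat3 by 0.65 ± 0.14 (adjusted p 0.0678), each with groups that did not overlap. The 16 other ABCA and ABCG transporters gave 0 calls by limma, with 3 at an unadjusted p below 0.05. Abca7 differed by -0.48 ± 0.11 (adjusted p 0.0891) and Abca6 by 0.94 ± 0.25 (adjusted p 0.149).

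**Figure D4:**
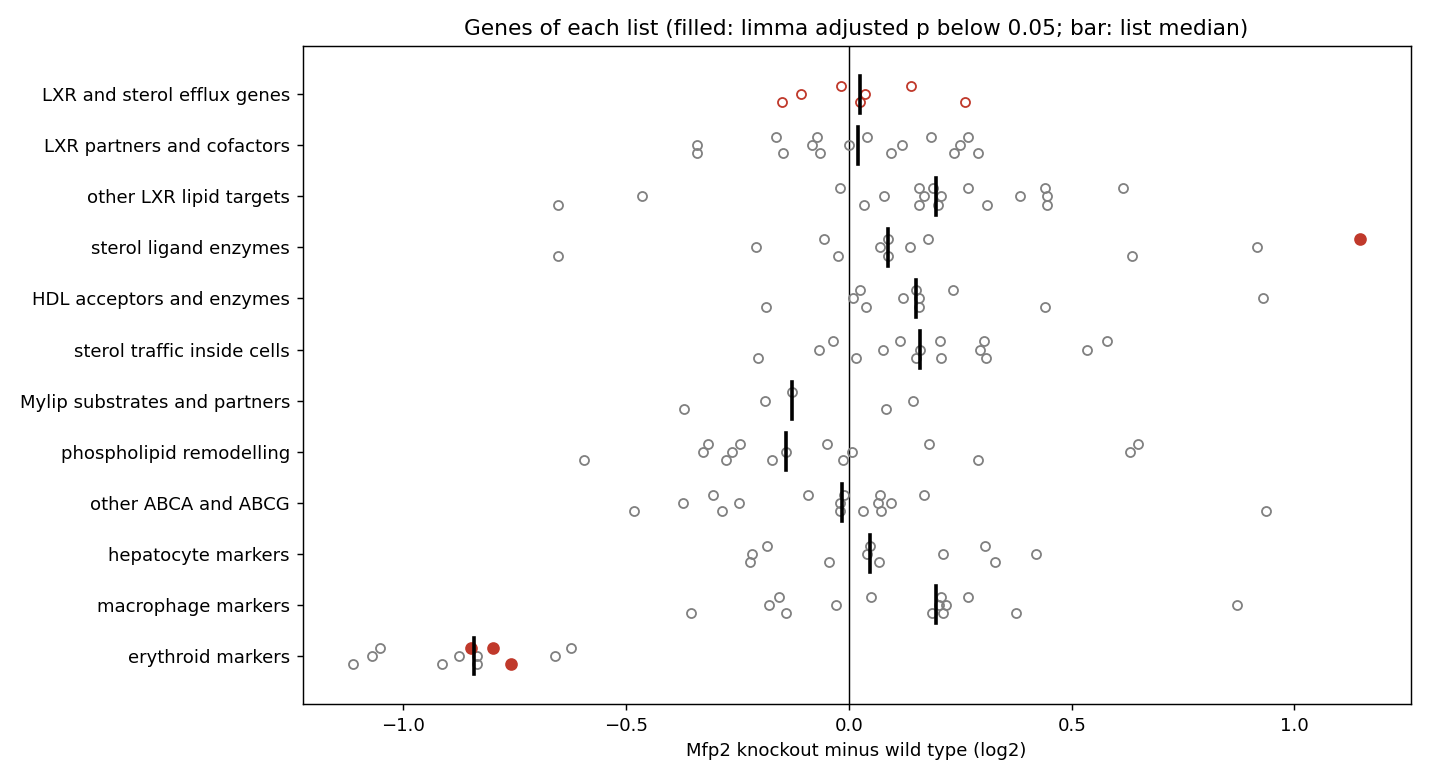
Difference of knockout minus wild type (log2) for each measured gene of the members and of the other lists, with filled points for genes with a limma adjusted p below 0.05 and black bars for list medians. The members lie between -0.15 and 0.26, and the 12 erythroid markers all lie below 0.

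Facts of all arrays bear on these values as follows. Hsd17b4 had a mean of 3.84 ± 0.45 (SD) over the 4 knockout livers, against 8.50 ± 0.40 over the 4 wild type livers, and each array matched its label. Hepatocyte markers were bright, with a list mean of 12.2 to 12.3 in knockout and 12.1 to 12.2 in wild type livers, and 0 of 11 passed in limma, with 2 at an unadjusted p below 0.05. The red cell precursor markers had a list mean of 8.3 to 9.0 in knockout and 9.4 to 9.6 in wild type livers, and all 12 measured had a lower mean in the knockout. All 12 had an unadjusted p below 0.05 in limma, against 14.6% of all genes. Of these 12, Ermap, Hemgn and Rhag fell past the threshold. That count of 3 became 0 when knockout 3 or 4 or wild type 3 or 4 was left out, 1 for wild type 1 and 9 for knockout 2, and in replicates 1 and 2 alone it was 0. With the erythroid mean as a covariate 0 members passed, in a fit where that mean and genotype are nearly confounded, and its part in the members' values was not tested otherwise. Macrophage markers, of cells that also express Abca1, Abcg1 and Nr1h3, had a list mean of 7.20 to 7.97 in knockout and 7.08 to 7.69 in wild type livers, with 0 of 14 past the threshold in limma and 1 at an unadjusted p below 0.05.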

How the data were processed

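Per the submitters' processing notes, RMA gave the deposited log2 values. Its software, version and settings are not stated in the sources used here. That the scale is log2 follows from the range of 1.11 to 13.7. Arrays give no read depth, and their number, 4 against 4, limits the precision. From 45101 probe sets, 64 array controls were left out. Of the other 45037, the array annotation names 1 gene for 34945, several for 932 and none for 9160. Symbols were updated through Entrez identifiers, found for 34741 probe sets in the gene table of GRCm38.p6. The brightest probe set over all arrays stood for its gene.

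Knockout was compared with wild type by lmFit and a two-sided eBayes test in limma 3.58.1 (R 4.3.3), without covariates, with Benjamini-Hochberg adjustment over 45037 probe sets and a threshold of 0.05. The fit was tested on simulated data. Intervals are those of the moderated test at 95%. For single genes an exact permutation test over livers was added. The members and the 15 other lists were chosen with earlier results of these data known. Genes named beside the members are, per list, up to 4 past the threshold or else the 2 with the lowest p, and Rxra, Srebf1 and Cyp7a1. Cyp27a1 and Cyp39a1 fall outside this rule and were named after their values were seen. By limma 0 genes passed in the lists of bile duct, endothelial, stellate cell and neutrophil markers, and 0 had an unadjusted p below 0.05.

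No label ties replicate numbers to litters or batches, and p-values measure the spread between these livers. Deviations of same-numbered livers from their group means correlated at -0.0039, 0.069, 0.17 and 0.26 for replicates 1 to 4. As these were not over 0.1 in every pair, no block was fitted in the main test. With the replicate number as a block 9 genes were called, against 209 without it. The alternatives tried are in the closing section.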

Additional observations from a re-analysis of the deposited data

How the results depend on the processing

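In 24 alternatives 0 of the 7 genes passed the threshold, also at an adjusted p below 0.1. With 1 value standing for each gene, the lowest adjusted p in limma was 0.306, for Lpcat3 in replicates 3 and 4 alone. Probe sets that did not stand for their gene are not in that minimum. Of these, Abca1 1450392_at had an adjusted p of 0.121 without knockout 2. The alternatives were a filter on dim probe sets, quantile normalization again, median centring, trended or robust variance, array weights, the replicate block, the array subset, red cell, macrophage or Y-linked marker means as covariates, other rules for the probe set of a gene, and each array left out. With the replicate number as a block Lpcat3 stayed at 0.26 and Nr1h3 at -0.15, since this balanced block cannot change a difference. Their adjusted p were 0.558 and 0.659, and the block called 9 genes in all, against 209 without it. The calls of Dhcr7 and of the 3 erythroid markers were not made in that fit. The median difference of the members lay between -0.083 and 0.078 with any 1 array left out, and was 0.26 with the erythroid mean as a covariate, which is nearly confounded with genotype.

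Of 168 differences recomputed, 17 changed sign. The 168 include settings that left every difference as in the main test. These were the filter, trended or robust variance, the block, the array subset as a covariate and the threshold of 0.1. The probe set rules likewise cannot change the difference of a gene with 1 probe set. With the erythroid covariate Nr1h3 was at 0.10, Abca1 at 0.37, Abcg5 at 0.64 and Mylip at -0.054. In replicates 1 and 2 alone Abca1 was at 0.14, Abcg1 at -0.11, Abcg5 at 0.075 and Mylip at -0.056. Abcg1 was at -0.024 with the macrophage covariate. Abcg5 was at 0.018 after quantile normalization and 0.026 with array weights. With any 1 array left out Abcg5 ranged from -0.19 to 0.12 and Abcg1 from -0.089 to 0.10. The cause of these changes was not tested. Over all alternatives the count past the threshold lay between 0 and 2 for ligand enzymes, against 1 in the main test, and between 0 and 12 for erythroid markers, against 3. Where the main count was 0, it reached 2 for lipid targets and phospholipid remodelling and 1 for HDL acceptors and other ABC transporters, and stayed at 0 for the other lists. Over all genes the count lay between 0, with the erythroid covariate, and 545, with array weights, against 209, and between 5 and 286 with 1 array left out.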
